A study of Gallus gallus with 4 samples.

Results

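Ancient LINE and SINE retroelements were followed in RNA of chick (Gallus gallus) cranial neural folds, with and without CRISPR targeting of Chiwi. They were taken from the deposited repeat tables by name. Included were names that begin with CR1 and end in _Croc, _Crp or _AMi, names that contain LINE or SINE, and names that begin with L2, L3, MIR or Plat_L3. This gave 29 of 11336 repeat names, with 0 that begin with L3 or Plat_L3. They fall into 11 CR1 names of crocodilians, 6 L2 and MIR names, 3 SINE names (AmnSINE1, AmnSINE2 and LFSINE_Vert) and 9 names of the form X LINE. Of the 29, 14 end in a suffix for crocodilians, crocodile, alligator or painted turtle, while MIR_Aves1 and MIR_Aves2 are named for birds. The tables hold names and counts only, so the age of these elements and their presence in reptiles were not measured.

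The 2 Chiwi knockout libraries come from embryos that received a Cas9 construct and Chiwi guide constructs on the right side at Hamburger-Hamilton stage HH4. The 2 control libraries come from the left side, which received Cas9 with control guides. Chiwi is a PIWI protein of the chicken, and the cranial neural folds are the raised edges of the future brain, the source of cranial neural crest cells. The embryos were incubated at 37 °C for about 18 h before electroporation and about 14 h after it, and the folds were dissected at HH9-. Every library is a pool of several embryos, and electroporation reaches only part of the cells of a fold. Group and side cannot be told apart, and a lower level per cell and fewer cells with the RNA cannot be told apart either.

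LINEs are retrotransposons that encode their own reverse transcriptase and move by copying their RNA back into DNA. SINEs are short elements without a protein of their own that borrow the machinery of a LINE, and the tail of a MIR element resembles that of an L2 LINE. CR1 is the LINE clade that dominates bird genomes, and the 11 CR1 names studied here stand for branches of it described in crocodilians. The copies of such old families in the chicken genome are mostly short, mutated remnants, many of which lie in introns or in untranslated parts of genes. PIWI proteins bind piRNAs and are known for silencing active transposons in the germ line.

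The gene tables held 38783357 to 40352750 reads per library, and the repeat tables held between 2707324 and 2942281 reads. Levels are given as CPM, the reads of a name per 1000000 reads of the same library's gene table. A name sums the reads of all its copies, with no correction for length or copy number, so the order of levels is not an order of activity per copy. Reads of a host gene that runs through a copy may be among them, and their part was not tested. For these names, knockout replicate 1 stood apart from the other libraries. It was the lowest of the 4 libraries for 18 of the 25 names that passed the low-count filter, against 33.3% of all repeat names tested. Over all repeat names tested, control replicate 2 was the lowest library almost as often, at 31.5%. The gene tables use Ensembl IDs, of which 0 of 24356 could be paired with a symbol, so the level of Chiwi, the tissue markers and the other genes of the piRNA pathway were not analysed here.

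Together the 29 names were a small part of the repeat reads. They summed to 904 and 969 CPM in the knockout libraries, against 973 and 984 CPM in the control libraries. Their reads were concentrated in a few names: the top 5 held 57.9% and the top 10 held 89.3% of them. CR1-L3B_Croc alone held 16.5% and ranked 64th by level among the 2803 repeat names tested. The crocodilian CR1 names summed to 416 and 460 CPM in knockout folds and 469 and 466 CPM in control folds. The L2 and MIR names summed to 349 and 358 CPM in knockout folds and 355 and 369 CPM in control folds. The SINE names summed to 128 and 138 CPM against 137 and 136 CPM, and the X LINE names to only 10.9 and 13.2 CPM against 13.2 and 12.7 CPM, in knockout folds against control folds.

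**Figure D1:**
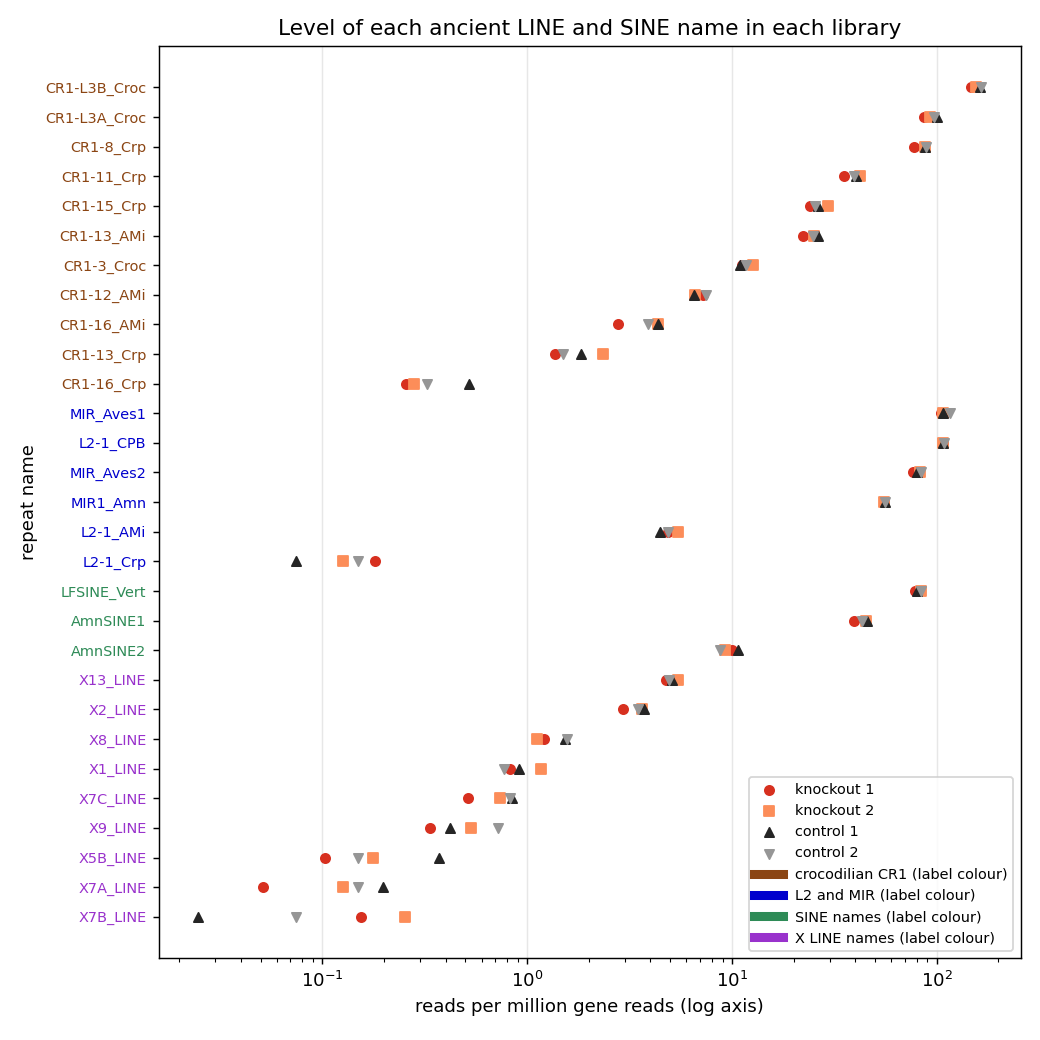
Level of each of the 29 names in each of the 4 libraries, in CPM of gene reads on a log axis, with names grouped by family and ordered by mean level. Each marker is 1 library. CR1-L3B_Croc lies highest at 148 to 165 CPM, and the symbols of a name sit close together except for names with few reads, such as X7B_LINE.

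No name passed the test of knockout against control. Of the 29, 25 passed the filter, and 0 of these 25 had an adjusted p under 0.05 in edgeR's quasi-likelihood test, against 0.00% of all 2803 repeat names (smallest edgeR adjusted p = 0.9997). At an unadjusted p under 0.05 the count was 0 of 25, against 1.39% of all names. Names without any difference would reach that threshold at a share of 0.05, so p-values ran high in this fit. A count of 0 of 25 therefore says little about these names. At an adjusted p under 0.05 the count was also 0 with DESeq2 and with limma-voom. Among the 25 log2 fold changes, 19 were negative and 6 positive, so 76% were negative against 51.1% of all names. Of the 27 other CR1 names, mostly bird subfamilies, 24 were negative, which is 88.9%. The median was -0.040, against -0.0043 over all names tested. The fold changes share their libraries, so this count describes these 4 pools and was not tested as a set.

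In 8 of the 25 names both knockout libraries lay below both control libraries, which is 32% against 12.8% of all names tested. They were CR1-L3A_Croc, CR1-L3B_Croc, CR1-8_Crp, CR1-16_Crp, L2-1_CPB, MIR1_Amn, X7C_LINE and X8_LINE. The reverse was seen in 1 name, L2-1_AMi, which is 4% against 12.9% of all names. Of the 27 other CR1 names, 1 lay lower in both knockout libraries (3.7%) and 0 lay higher in both. Of the separations among the 25 names, only those of CR1-L3A_Croc, CR1-L3B_Croc and X8_LINE were larger than a counting error. The separation is taken here as the gap between the nearest knockout and control libraries. The other separations were smaller than a counting error, as the values by family show.

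**Figure D2:**
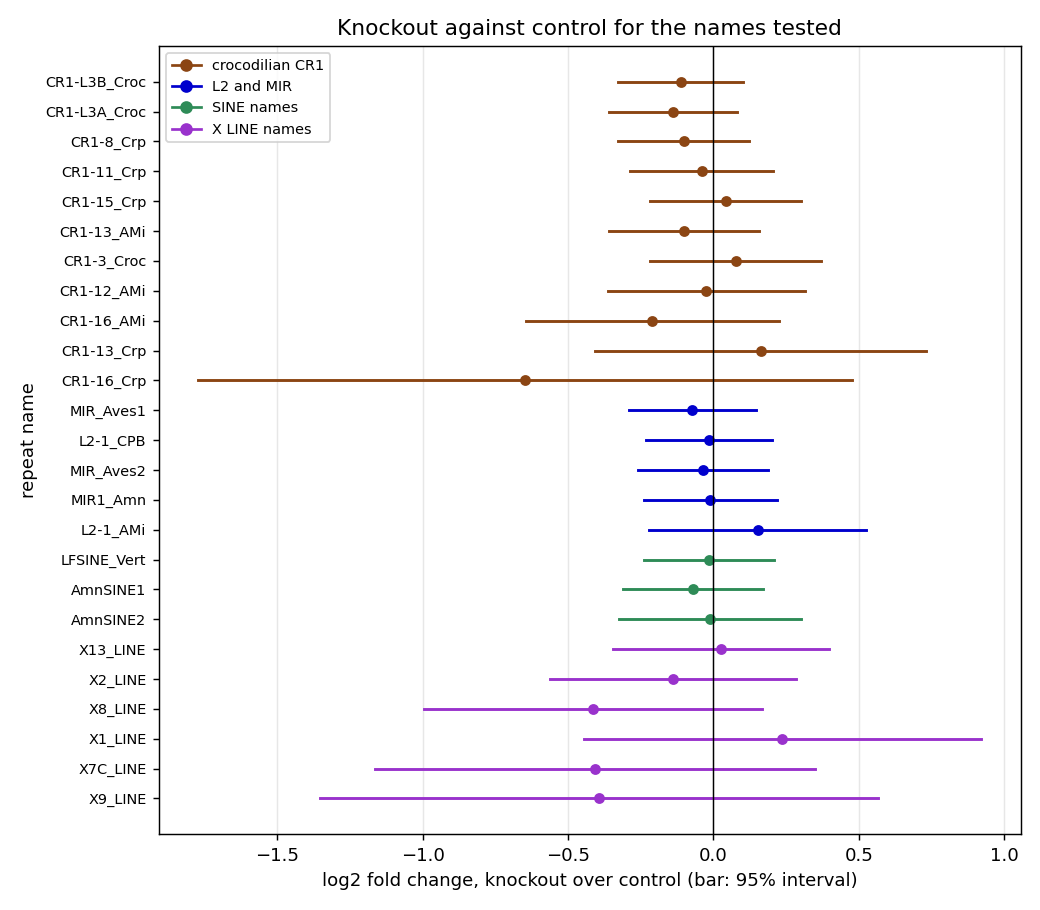
Log2 fold change of knockout over control for the 25 names tested, with the 95% interval of the edgeR fit as a bar and the family as a colour. Every interval includes 0, and the bars reach 0.21 to either side for CR1-L3B_Croc and 1.13 for CR1-16_Crp.

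Among the crocodilian CR1 names, the 3 with the most reads lay lower in both knockout libraries. CR1-L3B_Croc and CR1-L3A_Croc belong to the L3 branch of CR1. CR1-L3B_Croc was at 148 and 156 CPM in knockout folds and at 163 and 165 CPM in control folds, with a counting error of 1.95 to 2.03 CPM per library. The groups did not overlap, and the log2 fold change was -0.11 (SE 0.11, 95% interval -0.33 to 0.10). CR1-L3A_Croc was at 86.9 and 93.0 CPM in knockout folds and at 101 and 97.1 CPM in control folds. Here too the groups were apart, and the knockout value was -0.14 on the log2 scale (SE 0.11, interval -0.36 to 0.08). CR1-8_Crp, a crocodile element, was at 77.2 and 87.8 CPM in knockout folds and at 88.0 and 89.0 CPM in control folds. Its knockout replicate 2 was within 1 counting error (1.49 CPM) of control replicate 1, while knockout replicate 1 lay well below the other libraries (log2 fold change -0.10, SE 0.11).

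The next crocodilian CR1 names overlapped between the groups. CR1-11_Crp was at 35.4 and 42.2 CPM in knockout folds and at 40.3 and 39.5 CPM in control folds. CR1-15_Crp was at 24.0 and 29.3 CPM in knockout folds and at 26.2 and 25.5 CPM in control folds. In both, the knockout libraries were the lowest and the highest of the 4, and the log2 fold changes were -0.040 (SE 0.12) and 0.043 (SE 0.13). CR1-13_AMi, an alligator element, was at 22.4 and 25.3 CPM in knockout folds and at 26.2 and 24.9 CPM in control folds (log2 fold change -0.10, SE 0.13). CR1-3_Croc was at 11.3 and 12.7 CPM against 11.0 and 11.7 CPM in knockout folds against control folds, with a log2 fold change of 0.077 (SE 0.14). CR1-12_AMi was at 7.22 and 6.60 CPM in knockout folds and at 6.54 and 7.51 CPM in control folds, and was the most even of the family between groups, at -0.024 (SE 0.17).

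The crocodilian CR1 names under 5 CPM had wide errors. CR1-13_Crp was at 1.37 and 2.36 CPM in knockout folds and at 1.83 and 1.50 CPM in control folds, so the knockout libraries again held both extremes (log2 fold change 0.16, SE 0.28). CR1-16_Crp had only 10 and 11 reads in knockout folds and 21 and 13 reads in control folds, or 0.258 and 0.279 CPM against 0.520 and 0.324 CPM. Its knockout replicate 2 and control replicate 2 differed by less than a counting error (0.0842 and 0.0899 CPM). The log2 fold change of CR1-16_Crp, -0.65, was the largest in size among the 25 names, with an interval from -1.77 to 0.48. It was -0.27 without control replicate 1, smaller in size than X8_LINE (-0.43) and X7C_LINE (-0.39) in that fit, and -0.95 without control replicate 2. The remaining name, CR1-16_AMi, had a log2 fold change of -0.21 (SE 0.21). Over the family 8 of 11 fold changes were negative, the median was -0.10 and 0 of 11 passed.

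L2-1_CPB and MIR1_Amn held nearly the same level in all 4 libraries. L2-1_CPB, the L2 LINE of the painted turtle, was at 106.9 and 106.9 CPM in knockout folds and at 107.7 and 108.3 CPM in control folds. The groups did not overlap, but the whole range was smaller than the counting error of a single library (1.63 to 1.66 CPM). This is -0.015 on the log2 scale (SE 0.11, interval -0.23 to 0.20). MIR1_Amn, a MIR described across amniotes, was at 55.4 and 55.6 CPM in knockout folds and at 55.9 and 55.8 CPM in control folds, with a counting error of 1.18 to 1.20 CPM. It too was apart by less than that error, with -0.0099 on the log2 scale (SE 0.11, interval -0.24 to 0.22).

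The bird-named MIR elements moved more from library to library. MIR_Aves1 was at 105.3 and 107.0 CPM in knockout folds and at 106.9 and 116.3 CPM in control folds, so control replicate 2 alone was high (log2 fold change -0.073, SE 0.11). MIR_Aves2 was at 76.5 and 82.8 CPM in knockout folds and at 79.7 and 83.6 CPM in control folds, and the groups interleaved (log2 fold change -0.036, SE 0.11). L2-1_AMi, the L2 of the alligator, was the single name among the 25 tested that lay higher in both knockout libraries. It was at 4.90 and 5.43 CPM in knockout folds and at 4.44 and 4.86 CPM in control folds, where knockout replicate 1 and control replicate 2 differed by less than a counting error (0.355 and 0.348 CPM). Its log2 fold change was 0.15 (SE 0.18, interval -0.22 to 0.53), and of the 5 names tested in this family 4 were negative and 0 passed.

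The SINE names overlapped between the groups, all 3 of them. LFSINE_Vert belongs to the SINEs of lobe-finned fishes, a family known for a copy that serves as a distant enhancer of ISL1 in mammals. It was at 78.5 and 84.0 CPM in knockout folds and at 80.2 and 83.9 CPM in control folds (log2 fold change -0.014, SE 0.11, interval -0.24 to 0.21). AmnSINE1, a SINE of amniotes known for copies with enhancer activity in the developing mammalian brain, was at 39.5 and 45.0 CPM in knockout folds and at 45.6 and 43.1 CPM in control folds. Knockout replicate 1 was its lowest library, and the log2 fold change was -0.070 (SE 0.12). AmnSINE2 was at 10.1 and 9.27 CPM in knockout folds and at 10.7 and 8.75 CPM in control folds. Its 2 control libraries were the highest and the lowest, and the log2 fold change was -0.012 (SE 0.15).

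The X LINE names had the fewest reads as a family, with X13_LINE and X2_LINE well above the rest. X13_LINE, the highest of them, was at 4.77 and 5.43 CPM in knockout folds and at 5.10 and 4.91 CPM in control folds, with no separation (log2 fold change 0.027, SE 0.18). X8_LINE had the smallest unadjusted p of all 25 names, 0.155 in the edgeR fit. It had 47 and 44 reads in knockout folds and 62 and 63 reads in control folds, or 1.21 and 1.12 CPM against 1.54 and 1.57 CPM. The groups were apart, and the log2 fold change was -0.42 (SE 0.28, interval -0.997 to 0.17). X7C_LINE had 20 and 29 reads in knockout folds and 34 and 33 in control folds (0.516 and 0.736 CPM against 0.843 and 0.823 CPM). Its groups were apart, but knockout replicate 2 and control replicate 2 differed by less than a counting error (0.137 and 0.143 CPM). The log2 fold change of X7C_LINE was -0.41 (SE 0.37). X1_LINE, at 0.825 and 1.17 CPM in knockout folds and 0.917 and 0.773 CPM in control folds, had the highest positive value of the 25 names, 0.24, with an SE of 0.34. X2_LINE and X9_LINE overlapped, at log2 fold changes of -0.14 (SE 0.21) and -0.39 (SE 0.47).

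The 4 names below the filter had between 1 and 15 reads per library and were not tested in the filtered fit of all 4 libraries. X7B_LINE had 6 and 10 reads in knockout folds and 1 and 3 reads in control folds. X7A_LINE, from the same group of elements by name, lay the other way, with 2 and 5 reads in knockout folds and 8 and 6 reads in control folds. X5B_LINE had 4 and 7 reads in knockout folds and 15 and 6 reads in control folds. L2-1_Crp, the crocodile counterpart of L2-1_AMi by name, had 7 and 5 reads in knockout folds and 3 and 6 reads in control folds.

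Pools of a group differed from each other by more than counting error. Over the 25 names the knockout libraries differed by 6.67 times the counting variance (chi-square per name) and the control libraries by 2.10 times. These multiples are means over names. To the control multiple, MIR_Aves1 (106.9 and 116.3 CPM) and AmnSINE2 (10.7 and 8.75 CPM) gave the largest parts. Over all 2803 names tested the multiples were higher in both groups, at 11.1 times for knockout and 12.4 times for control. Over the 27 other CR1 names they were 146 and 31.4 times. For the same relative difference this multiple rises with the reads of a name, so it does not rank sets of unlike level. Among the other CR1 names, knockout replicate 2 lay above knockout replicate 1 for 26 of 27, at a median of 0.19 log2 units. Control replicate 2 lay above control replicate 1 for 1 of these 27, at a median of -0.069. Knockout replicate 2 lay above knockout replicate 1 for 21 of 25 names, at a median of 0.17 log2 units, against 1679 of 2803 names tested. Control replicate 2 lay above control replicate 1 for 11 of 25, at a median of -0.030, against 1123 of 2803. Knockout replicate 1 was the lowest library for 9 of 11 crocodilian CR1 names, 3 of 5 L2 and MIR names, 2 of 3 SINE names and 4 of 6 X LINE names. It was the highest library for 0 of the 25, against 562 of the 2803 names tested. Fits without 1 library applied the low-count filter anew, so their medians need not cover the same 25 names. Leaving out knockout replicate 1 gave a median log2 fold change of -0.0097 over the names kept, and leaving out knockout replicate 2 gave -0.16. Leaving out control replicate 1 gave -0.054, and leaving out control replicate 2 gave -0.011.

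**Figure D3:**
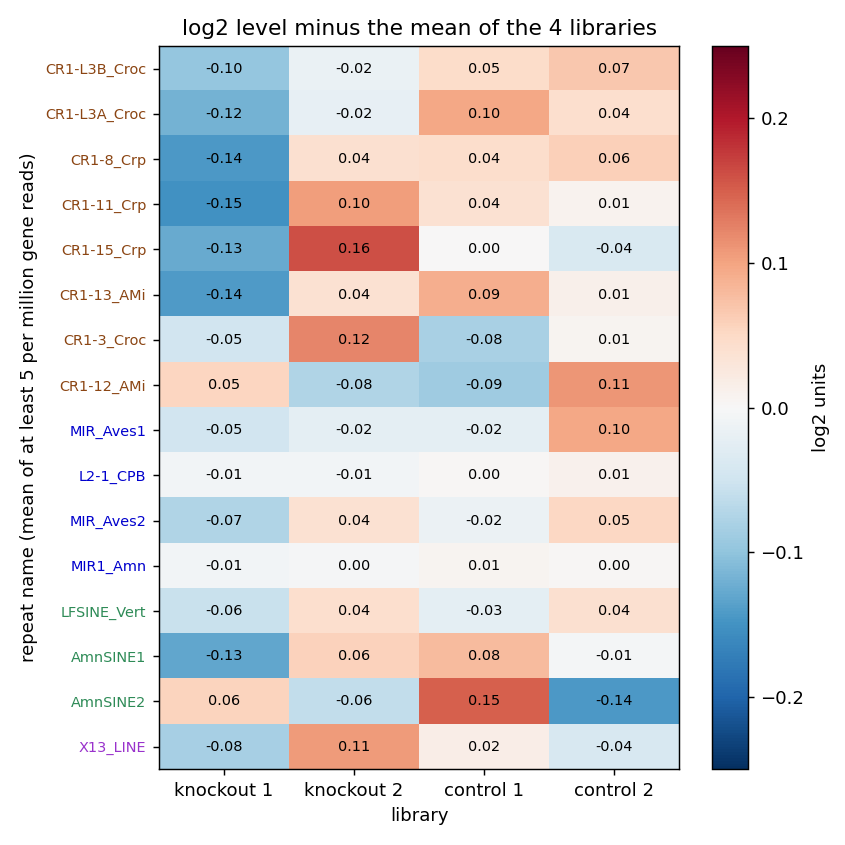
Log2 level of each name in each library minus the mean of the 4 libraries, for the 16 names with a mean of at least 5 CPM; blue is below and red above that mean. Knockout replicate 1 is between -0.15 and -0.096 for the 6 crocodilian CR1 names with the most reads, while L2-1_CPB and MIR1_Amn stay between -0.0076 and 0.011 in all libraries.

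Of the 22 names described singly by the naming rule, 11 kept their sign under every alternative and when any library was left out. These were CR1-L3A_Croc, CR1-L3B_Croc, CR1-8_Crp, CR1-13_AMi, CR1-16_Crp, L2-1_AMi, L2-1_CPB, MIR1_Amn, MIR_Aves1, X7C_LINE and X8_LINE. Except in CR1-13_AMi and MIR_Aves1, the groups of these names did not overlap, so leaving out 1 library could not turn the sign. The size of the fold changes moved all the same. When 1 library was left out, the log2 fold change ranged from -0.19 to -0.091 for CR1-L3A_Croc, -0.15 to -0.073 for CR1-L3B_Croc, -0.20 to -0.012 for CR1-8_Crp and -0.19 to -0.014 for CR1-13_AMi, each smallest in size without knockout replicate 1. It ranged from -0.69 to -0.18 for X7C_LINE, also smallest in size without that library, and from -0.47 to -0.36 for X8_LINE. MIR_Aves1 ranged from -0.13 to -0.011, smallest in size without control replicate 2, and L2-1_AMi from 0.075 to 0.22, smallest without knockout replicate 2. L2-1_CPB ranged from -0.018 to -0.011 and MIR1_Amn from -0.012 to -0.0074. Without knockout replicate 1 the log2 fold change turned to 0.082 for CR1-11_Crp, 0.020 for AmnSINE1, 0.019 for MIR_Aves2 and 0.034 for LFSINE_Vert. Without knockout replicate 2 it turned to -0.28 for CR1-13_Crp, -0.11 for CR1-15_Crp, -0.011 for CR1-3_Croc, -0.071 for X13_LINE and -0.035 for X1_LINE, and to 0.039 for CR1-12_AMi and 0.046 for AmnSINE2. Without control replicate 1 AmnSINE2 was at 0.14, and without control replicate 2 CR1-12_AMi was at 0.079, LFSINE_Vert at 0.018 and X13_LINE at -0.00073.

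Summed over all 29 names, both knockout libraries lay below both control libraries, at 937 ± 45.6 CPM against 978 ± 7.17 CPM in control folds (SD, n = 2 each). The nearest libraries of the 2 groups were knockout replicate 2 at 969 CPM and control replicate 1 at 973 CPM. The ratio of the means was 0.957, with an exact two-sided permutation p of 0.333, the smallest that 2 against 2 libraries can give. Leaving out knockout replicate 1 gave a ratio of 0.990, and leaving out knockout replicate 2 gave 0.924. The crocodilian CR1 sum showed the same arrangement, at 438 ± 30.7 CPM in knockout folds against 468 ± 1.88 CPM in control folds, or 0.937 times the control mean (exact permutation p = 0.333). Leaving out knockout replicate 1 gave 0.983, and leaving out knockout replicate 2 gave 0.890. The L2 and MIR sum had a ratio of 0.977 (exact permutation p = 0.667), the SINE sum 0.978 (exact permutation p = 1) and the X LINE sum 0.932 (exact permutation p = 1), all with overlapping groups. Without knockout replicate 1 the SINE ratio was 1.02 and the X LINE ratio also 1.02. After adjustment over the 13 permutation comparisons made, every p was 1.

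**Figure D4:**
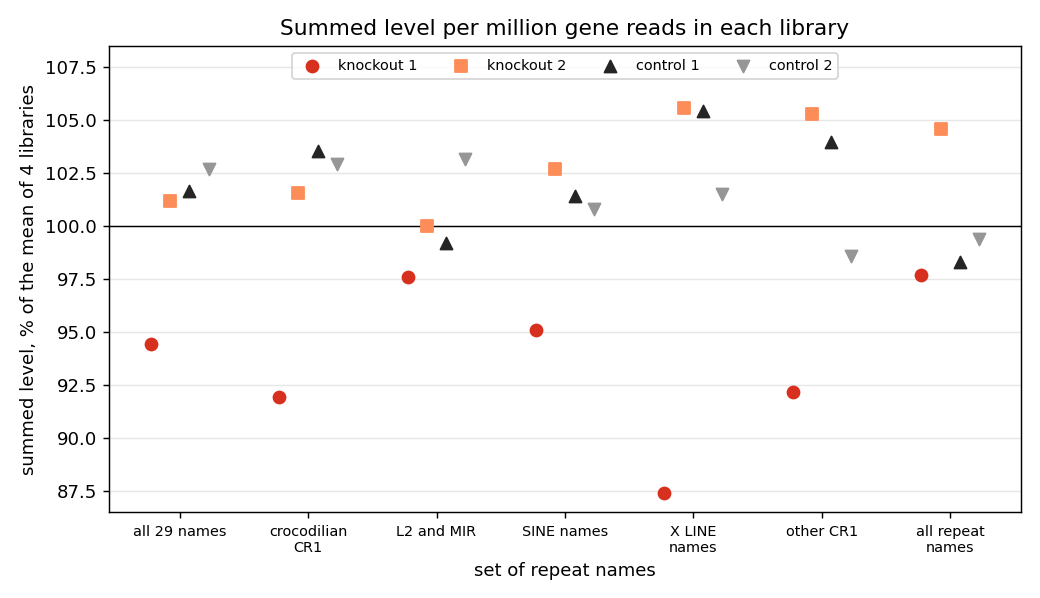
Summed level of each set of names in each library as a percentage of the mean of the 4 libraries, from CPM of gene reads. Knockout replicate 1 is lowest in each of the 7 sets, and the libraries of all 29 names are at 904 and 969 CPM in knockout folds against 973 and 984 CPM in control folds.

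By their shared prefix, the names most like the crocodilian CR1 names are the 27 other CR1 names. Relation by sequence was not examined. The 27 include the amniote names CR1_Amni-1 and CR1-1_Amn. These 27 names had far more reads in sum. Their sum was 10119 and 11564 CPM in knockout folds and 11414 and 10824 CPM in control folds, or 0.975 times the control mean, and their median log2 fold change was -0.041, like that of the ancient names. Knockout replicate 1 was the lowest library for 24 of these 27. Per 100 reads of the other CR1 names, the ancient names had 8.94 and 8.38 reads in knockout folds and 8.53 and 9.09 reads in control folds. The groups overlapped, and the ratio of 0.983 had an exact permutation p of 0.667. Leaving out knockout replicate 2 gave 1.01, and leaving out control replicate 2 gave 1.02. The crocodilian CR1 names alone had 4.11 and 3.98 reads on that scale in knockout folds and 4.11 and 4.31 reads in control folds. Here too the groups overlapped, at a ratio of 0.962 (exact permutation p = 0.667). No difference between the sums of the ancient names and of the other CR1 names was therefore detected, in a design that cannot reach a p under 0.333. Groups that did not overlap were less frequent among the other CR1 names, as given above, and this was not tested.

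Against all repeat reads the ancient names were at 1.296 and 1.297 reads per 100 in knockout folds and at 1.386 and 1.385 reads per 100 in control folds. The libraries of a group agreed closely on this scale and the groups were apart, with a ratio of 0.936 and an exact permutation p of 0.333. The denominator moved as well: all repeat names together were at 69806 and 74703 CPM in knockout folds and at 70218 and 71016 CPM in control folds. Scaled to the gene table the ratio was 0.957, as given above. Per 100 reads of L2 and MIR names, a comparison added after the values were seen, the crocodilian CR1 names had 119 and 129 reads in knockout folds and 132 and 126 reads in control folds (exact permutation p = 0.667). The SINE names had 36.7 and 38.6 reads on that scale in knockout folds and 38.5 and 36.8 reads in control folds (exact permutation p = 1).

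**Figure D5:**
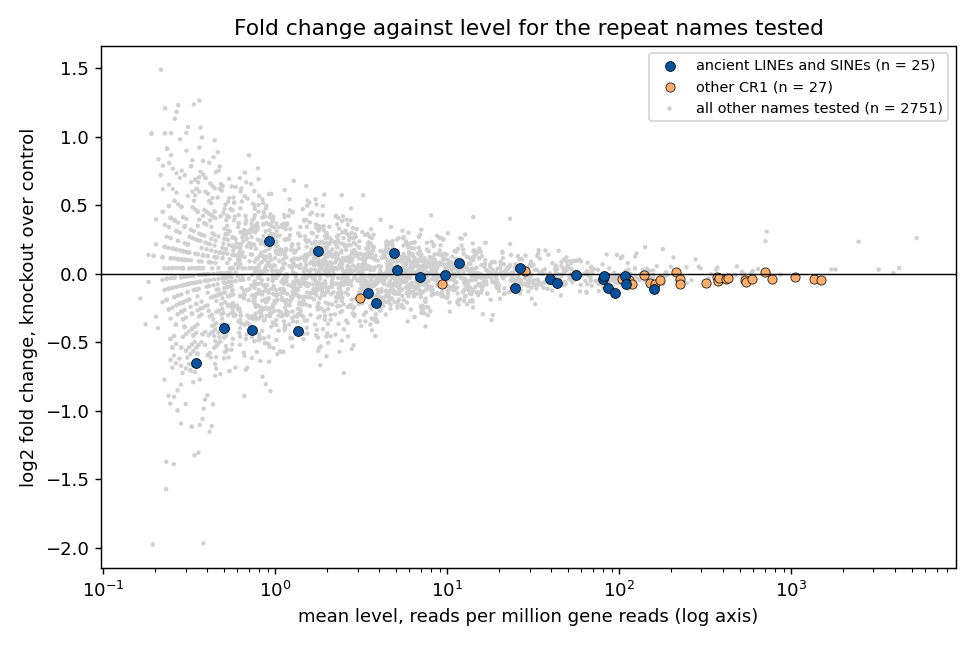
Log2 fold change of knockout over control against mean level (CPM of gene reads, log axis) for all repeat names tested, with the 25 ancient LINE and SINE names in blue and the 27 other CR1 names in orange. The fold changes narrow with rising level, and the ancient names lie between -0.65 and 0.24.

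For 22 of the 25 names the 95% interval of the edgeR fit lay within 1 log2 unit of 0, so that a 2-fold change in either direction was outside it. For all 16 names with at least 5 CPM it lay within 0.5 log2 units, reaching 0.23 to either side at the median. For the other 9 names tested the median reach was 0.58. These intervals rest on the spread between 2 pools per group, shared across repeat names with prior degrees of freedom of 27.4, and on levels in the whole dissected fold.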

How the data were processed

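For each of the 4 libraries the authors deposited 2 headerless files of raw read counts, one by Ensembl gene ID and one by repeat name. The submitters' processing notes list Bowtie2, featureCounts, DESeq2 and the galGal6 build. Not given in the sources used here are versions, strandedness and how multi-mapping reads were handled, so reads of related names may be split or dropped, and a repeat count may hold reads of a host transcript. Sequences of the elements were not used here.

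Levels were divided by the summed reads of the gene table. Counts were tested with edgeR 4.0.16 in R 4.3.3 (filterByExpr with minimum count 10 and minimum total 15; glmQLFit and glmQLFTest with default settings; group as the only term; library sizes from the gene table; normalization factors of 1). P-values were adjusted by Benjamini-Hochberg over all 2803 names, with a threshold of 0.05. SE is the fold change over the square root of F. Counting errors are the square root of a count and cover counting error only. The method was tested on simulated counts, with planted changes of 2-fold or more in names above a minimum read number. Smaller changes, like most of those described here, were not simulated. All simulated names shared 1 dispersion, and no simulated library was set low for a group of names, as knockout replicate 1 was here. How the method behaves under such deviations was therefore not tested.

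Given with a value for every library were names with a mean of at least 5 CPM, the 3 names per direction with the smallest unadjusted p, and names whose groups did not overlap. Names outside this rule are given for completeness. Members and lists were chosen with earlier results of these data known. Alternatives were other scalings, no filter, DESeq2 1.42.0, limma-voom (limma 3.58.1), a replicate block and leaving out each library. The labels do not tell whether each pool was drawn from its own embryos. The p-values therefore reflect only differences between these pools, which may be technical.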

Additional observations from a re-analysis of the deposited data

How the results depend on the processing

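The count of 0 names called was kept under TMM factors, median-of-ratios size factors, scaling to the repeat table, no low-count filter, DESeq2, limma-voom, a threshold of 0.10 and the fits without 1 library. With the replicate block, edgeR also called 0 of the names and 0 of all repeats, and the median log2 fold change was -0.045. The labels do not say whether same-numbered pools share embryos, so the numbers were not taken to pair the pools. The deviations of same-numbered libraries had a correlation of 0.42 over genes and 0.22 over repeat names. Each is a single value with 2 pools per group, so pairing could not be decided from it. Over all repeats, leaving out 1 library gave 0 to 2 calls. The median over the names kept by the filter in each of these fits ranged from -0.16 to -0.0097. The SINE sum ratio then ranged from 0.940 to 1.02, the X LINE sum ratio from 0.845 to 1.02, and the ratio to other CR1 names from 0.951 to 1.02. A lone library is assumed there to vary like the others.

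Of 242 values over 22 names and 11 alternatives, 16 turned sign, all but 1 when a library was left out. The exception was X13_LINE scaled to the repeat table, at -0.0079. Without 1 library the log2 fold change ranged from -0.17 to 0.020 for AmnSINE1, -0.15 to 0.14 for AmnSINE2, -0.17 to 0.082 for CR1-11_Crp, -0.12 to 0.079 for CR1-12_AMi, -0.28 to 0.50 for CR1-13_Crp, -0.11 to 0.18 for CR1-15_Crp, -0.011 to 0.16 for CR1-3_Croc, -0.064 to 0.034 for LFSINE_Vert, -0.094 to 0.019 for MIR_Aves2, -0.071 to 0.12 for X13_LINE and -0.035 to 0.47 for X1_LINE. The cause was not tested. The names under 5 CPM had the widest intervals. Of the names just listed, only CR1-13_Crp and X1_LINE were under that level.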

Other observations

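Some names of like origin fall outside the naming rule and were read for comparison, chosen with their values already known. AmnL2-1, an L2 LINE of amniotes, was at 6.27 and 8.12 CPM in knockout folds and at 7.93 and 9.45 CPM in control folds. The groups overlapped, and the log2 fold change was -0.27 (SE 0.17, 95% interval -0.61 to 0.069). CR1_Amni-1, an amniote CR1, was at 29.1 and 28.0 CPM in knockout folds and at 28.2 and 28.1 CPM in control folds, with a log2 fold change of 0.020 (SE 0.12). Among the 27 other CR1 names it was the only 1 whose highest library was knockout replicate 1, against 0 of the 11 crocodilian CR1 names. CR1-1_Amn was at 8.61 and 9.62 CPM in knockout folds and at 9.69 and 9.48 CPM in control folds, or -0.072 on the log2 scale (SE 0.15). A further name read, Penelope1_Vert, was at 0.593 and 0.914 CPM in knockout folds and at 1.04 and 0.748 CPM in control folds. Its groups overlapped, at a log2 fold change of -0.25 (SE 0.36).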
